A study of Mus musculus with 17 samples.

Results

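The comparison described here asks whether the loss of Pelo had another effect in cells of the upper hair follicle than in cells of the follicle bulge. It rests on all 17 of the study's 17 RNA libraries. For every gene, the genotype effect (Pelo -/- minus WT) in Lrig1 cells and in Lgr6 cells was averaged, and the genotype effect in Lgr5 cells was subtracted. A value below 0 means that the Pelo -/- level, relative to WT, was lower in the upper follicle than in Lgr5 cells, and a value above 0 means the opposite. The 3 populations were GFP+ cells sorted from the epidermis of C57BL/6 mice aged 3 months, 1000 cells per population, in which an EGFP-CreERT2 cassette at the Lrig1, Lgr6 or Lgr5 locus both marks the cells and carries the tamoxifen-activated recombinase. All mice had received 4-OHT. The groups called WT were Pelo fl/+ mice, with 2 libraries of Lrig1 cells, 3 of Lgr6 cells and 3 of Lgr5 cells. The groups called Pelo -/- were Pelo fl/fl mice, with 3 libraries of each population. The controls thus carried a floxed Pelo allele, the Cre cassette and the 4-OHT treatment as well, and Cre acted only in cells that express the marker locus. The labels do not say whether replicates came from separate mice.

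Pelo encodes the mammalian Pelota protein, which, with its partner Hbs1l, recognises ribosomes stalled at the end of a truncated or damaged mRNA and splits them for recycling. Lgr5 marks cells of the lower bulge and hair germ, which regrow the follicle, whereas Lrig1 and Lgr6 mark cells of the junctional zone and isthmus above the bulge, which maintain the upper follicle and sebaceous gland. Immediate early genes, which recur below, are switched on within minutes of a growth or stress signal through factors bound at their promoters.

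Marker genes separated the Lgr5 libraries from those of the upper follicle, but not Lrig1 from Lgr6 libraries. Lgr5 was at 276, 570.0 and 364 CPM (counts scaled to library size and composition) in the WT and 549.9, 467 and 476 CPM in the Pelo -/- Lgr5 libraries, against 0.0531 to 29.4 CPM in the 11 upper follicle libraries. Ly6d, a surface protein of upper follicle keratinocytes, was at 2481 to 5208 CPM in the upper follicle libraries and at most 20.2 CPM in Lgr5 libraries. The Lrig1 transcript, which encodes a brake on EGF receptor signalling, was at 7.42 to 41.7 CPM in Lrig1 and 39.3 to 60 CPM in Lgr6 libraries, and the Lgr6 transcript, for an R-spondin receptor, at 58.3 to 109 and 79.4 to 197 CPM, with overlap for both. The Pelo transcript itself did not separate the genotypes: it was at 6.05 and 3.72 CPM in WT and 3.82, 0.483 and 0.857 CPM in Pelo -/- Lrig1 cells, at 4.12, 5.39 and 2.02 against 3.1, 4.94 and 4.2 CPM in Lgr6 cells, and at 17.4, 5.9 and 17.3 against 11.8, 23.6 and 15.1 CPM in Lgr5 cells. Its groups overlapped in all 3 populations, and its genotype effects differed between upper follicle and Lgr5 cells by -1.02 ± 0.93 (SE) on the log2 scale (adjusted p = 1.0). Exons of Pelo overlap those of the predicted genes Gm49395, on the same strand, and Gm10734, on the other strand. Reads there cannot be separated from those of Gm49395, nor from those of Gm10734 unless counting used strand, which is not stated. The deleted part of Pelo is also not given in the labels, so the count does not check the genotype. Hbs1l, its partner, differed by -0.50 ± 0.50 (SE) (adjusted p = 1.0).

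The Lgr5 libraries stood apart in quality. Library totals ran from 9647507 to 28098841 counts. Counts at 13 predicted genes with satellite-like repeats made up 10.2%, 4.08% and 25.4% of the WT Lgr5 libraries, replicates 1, 2 and 3, and 1.72%, 6.45% and 9.42% of the Pelo -/- Lgr5 libraries, against 0.237% to 2.83% elsewhere. Counts of the mitochondrial genome made up 12.01%, 6.15% and 3.69% of the WT and 15.35%, 7.18% and 3.82% of the Pelo -/- Lgr5 libraries. Elsewhere they made up 4.66% to 7.68%. Pelo -/- Lgr5 replicate 1 thus had the highest mitochondrial share of all 17 libraries and the lowest satellite-like share of the Lgr5 libraries. The part of the mitochondrial share in the results below was not tested. The median standard deviation between replicates, on the log2 CPM scale over the 8882 genes that averaged at least 3, was 0.763 in WT and 0.575 in Pelo -/- Lgr5 cells and 0.259 to 0.434 in the 4 upper follicle groups. Results that move with the satellite-like shares are given below also for the 15 libraries left when WT Lgr5 replicate 3 and Pelo -/- Lgr5 replicate 1 are taken out. Among the 15, the satellite-like shares of the Lgr5 genotypes overlap.

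Of 30405 genes tested, 3 (0.00987%) had a genotype effect that differed between the upper follicle and Lgr5 cells at an adjusted p under 0.05 in edgeR's quasi-likelihood test with Benjamini-Hochberg adjustment. All 3 were lower, meaning that the Pelo -/- level relative to WT was higher in Lgr5 cells: Tm4sf1, Clic3 and the processed pseudogene Gm14038. No gene was higher at that threshold. At an unadjusted p under 0.05 there were 1679 genes (5.52%), of which 562 (1.85%) were higher and 1117 (3.67%) lower. DESeq2 called 52 genes higher and 32 lower, and limma-voom called none in either direction. DESeq2 gave no adjusted p for 9538 of the 30405 genes, so its adjustment ran over fewer genes than edgeR's.

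Tm4sf1 (chr3:57285611-57301988, GRCm38, minus strand) encodes a membrane protein of the L6 family, relatives of the tetraspanins. It was at 1.83, 0.769 and 0.601 CPM in the WT and 10.3, 14.3 and 8.05 CPM in the Pelo -/- Lgr5 libraries, and every Pelo -/- library lay above every WT library. In Lrig1 cells it was at 55.9 and 27 CPM in WT and 15.6, 16.3 and 37.8 CPM in Pelo -/- libraries, and in Lgr6 cells at 19.6, 61.1 and 39.6 and 17.3, 10.4 and 24.1 CPM, with overlapping groups in both. The log2 genotype effects were -0.84 ± 0.61 (SE) in Lrig1, -1.22 ± 0.56 (SE) in Lgr6 and 3.35 ± 0.62 (SE) in Lgr5 cells, and the difference was -4.38 ± 0.74 (SE) (adjusted p = 0.049). The level in Pelo -/- Lgr5 cells stayed under that of WT upper follicle cells in every library.

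Clic3 (chr2:25456838-25458776, plus strand) encodes an intracellular chloride channel family protein of epithelia that is linked to integrin recycling. It was at 2.1, 2.56 and 1.15 CPM in the WT and 19.95, 12 and 12 CPM in the Pelo -/- Lgr5 libraries, again without overlap. In Lrig1 cells the order was the opposite, with 58.7 and 81.2 CPM in WT above 21, 50.8 and 19.2 CPM in Pelo -/- libraries. In Lgr6 cells the groups overlapped at 61.3, 50.5 and 111 and 31, 18.7 and 75.5 CPM. The log2 genotype effects were -1.20 ± 0.56 (SE), -0.83 ± 0.51 (SE) and 2.92 ± 0.56 (SE) in Lrig1, Lgr6 and Lgr5 cells, and they differed by -3.94 ± 0.67 (SE) (adjusted p = 0.049).

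Gm14038 (chr2:134762824-134763630, minus strand) had no count in any of the 3 WT Lgr5 libraries and 1.11, 13.7 and 2.31 CPM in the Pelo -/- Lgr5 libraries. Against a floor of 3 counts over the WT group, or 0.0616 CPM, the pooled Pelo -/- level of 5.12 CPM was at least 83.1-fold higher. Upper follicle libraries of either genotype held 7.21 to 55 CPM, with overlapping groups. The fitted difference of -9.61 ± 1.59 (SE) (adjusted p = 0.049) depends on how the 0 counts are handled. A processed pseudogene is a retrotransposed copy, so its reads may belong to the gene it was copied from. It is named here because it passed the threshold, although it lies outside the rule for named genes.

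**Figure D1:**
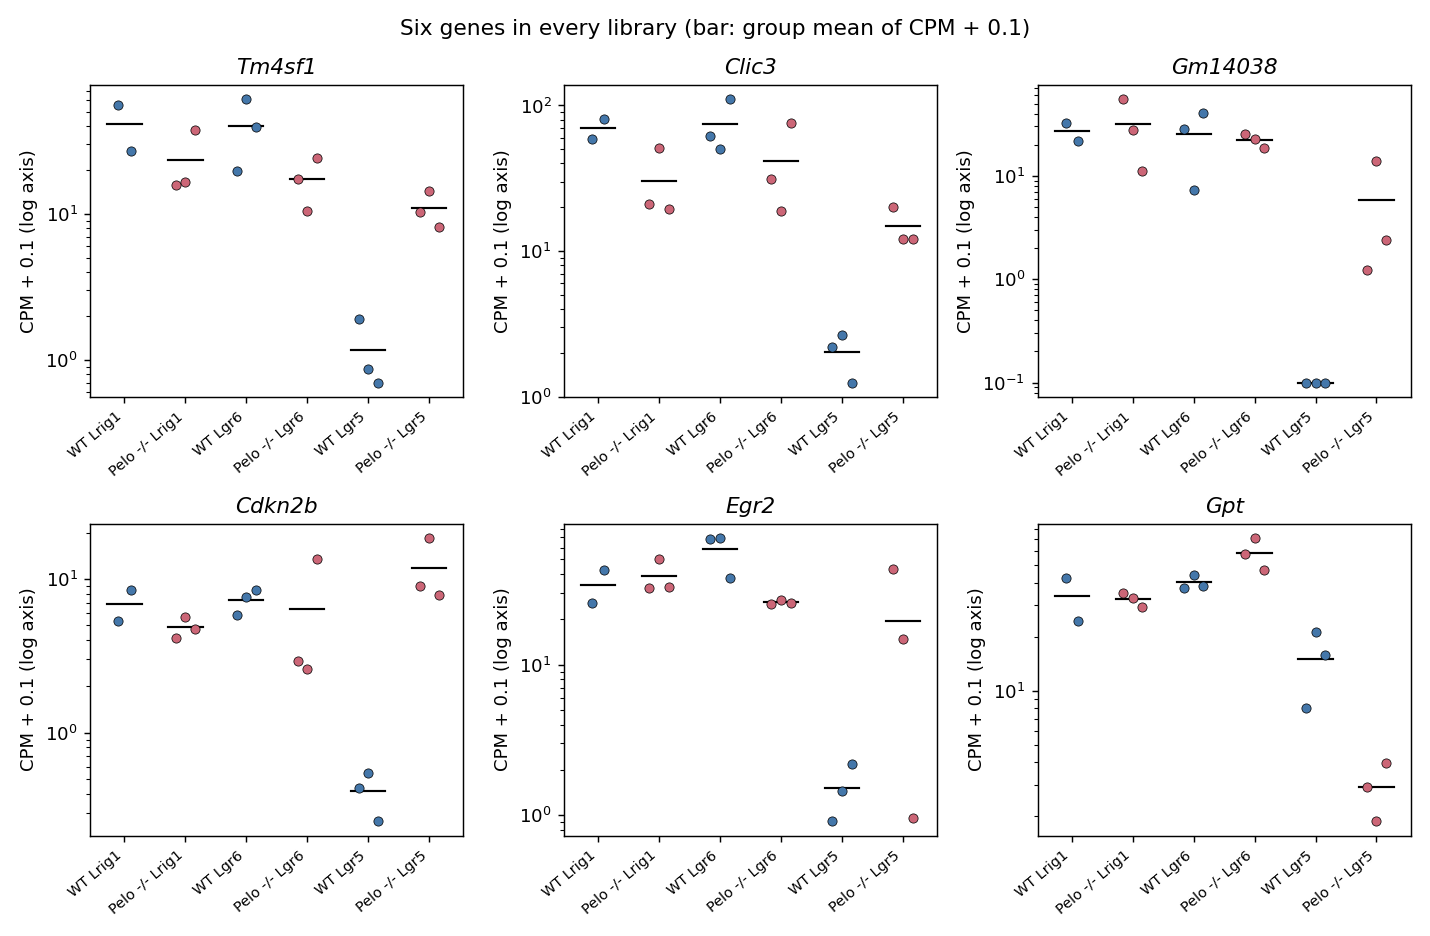
Each point is 1 library, with WT in blue and Pelo -/- in red, and the vertical log axis gives CPM + 0.1. For Tm4sf1, Clic3, Gm14038 and Cdkn2b the WT Lgr5 libraries lie below all others, for Egr2 Pelo -/- Lgr5 replicate 3 lies among them, and for Gpt the Pelo -/- Lgr5 libraries lie lowest at 1.77 to 3.87 CPM.

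These calls were at the edge of the threshold. With 1 library left out at a time, no gene was called in 10 of 17 fits. All 3 kept their sign under all 26 alternative settings, but Tm4sf1 and Clic3 each passed the threshold under 6 of them and Gm14038 under 5. Among the 15 libraries with overlapping satellite-like shares, the differences were -3.93 for Tm4sf1 (adjusted p = 0.0808), -3.18 for Clic3 (adjusted p = 0.202) and -10.01 for Gm14038 (adjusted p = 0.0389).

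Split by population, no gene passed the threshold when Lrig1 cells alone or Lgr6 cells alone were set against Lgr5 cells. edgeR gave 1613 genes (5.31%) at an unadjusted p under 0.05 for Lrig1 minus Lgr5 and 1454 (4.78%) for Lgr6 minus Lgr5, and DESeq2 called 62 and 56 genes, limma-voom none. DESeq2 left 8369 and 8952 genes without an adjusted p in these comparisons. Both comparisons use the same Lgr5 libraries. For Tm4sf1 the 2 differences were -4.19 ± 0.86 and -4.57 ± 0.84 (SE), and for Clic3 -4.12 ± 0.78 and -3.75 ± 0.75 (SE). The genotype effects in Lrig1 and Lgr6 cells did not differ from each other for any gene at the threshold (edgeR, 1278 genes, 4.2%, at an unadjusted p under 0.05). Within Lgr5 cells, 6 genes (0.0197%) passed the threshold, of 1901 (6.25%) at an unadjusted p under 0.05, all higher in Pelo -/-: Gm14038, Mtrr, Cdkn2b, Itga3 and the processed pseudogenes Gm4202 and Rpl10-ps2. Within Lrig1 and Lgr6 cells none did in edgeR (1106 genes, 3.64%, and 1180 genes, 3.88%, at an unadjusted p under 0.05).

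Promoter windows are shown for 5 genes with a higher mean level in Pelo -/- than in WT Lgr5 cells. They let the reader see the sequence before the start site. The windows are those of Tm4sf1 and Clic3, which passed the threshold, Cdkn2b, and the immediate early genes Egr2 and Dusp5. They are the 250 bases before the start, from RefSeq on GRCm38.p6. Of the 129 named genes, 98 had such an entry. Capitals mark a match, on either strand, to the AP-1 site TGANTCA, the cyclic AMP response element (CRE) TGACGTCA, the GC box GGGCGG, the TATA motif TATAAA, or CCATATNNG, a form of the serum response element.
Tm4sf1, chr3:57301989-57302238, minus strand: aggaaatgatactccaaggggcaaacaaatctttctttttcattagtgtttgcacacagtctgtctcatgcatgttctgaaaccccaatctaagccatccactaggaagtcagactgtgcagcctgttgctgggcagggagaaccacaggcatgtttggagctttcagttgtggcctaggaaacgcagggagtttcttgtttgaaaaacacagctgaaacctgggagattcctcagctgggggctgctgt
Clic3, chr2:25456593-25456842, plus strand: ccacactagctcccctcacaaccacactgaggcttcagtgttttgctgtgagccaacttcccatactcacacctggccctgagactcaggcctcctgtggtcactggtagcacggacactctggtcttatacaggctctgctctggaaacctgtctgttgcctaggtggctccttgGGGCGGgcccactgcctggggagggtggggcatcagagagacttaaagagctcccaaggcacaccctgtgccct
Cdkn2b, chr4:89311033-89311282, minus strand: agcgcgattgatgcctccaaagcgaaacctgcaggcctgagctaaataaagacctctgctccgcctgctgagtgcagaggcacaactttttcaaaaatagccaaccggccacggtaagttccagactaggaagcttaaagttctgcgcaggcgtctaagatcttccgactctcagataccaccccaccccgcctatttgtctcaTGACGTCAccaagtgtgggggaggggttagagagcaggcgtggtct
Egr2, chr10:67537619-67537868, plus strand: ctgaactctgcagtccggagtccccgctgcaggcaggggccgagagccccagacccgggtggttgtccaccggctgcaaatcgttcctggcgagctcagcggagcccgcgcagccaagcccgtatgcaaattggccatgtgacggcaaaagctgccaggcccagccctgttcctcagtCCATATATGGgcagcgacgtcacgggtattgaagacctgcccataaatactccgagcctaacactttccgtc
Dusp5, chr19:53528895-53529144, plus strand: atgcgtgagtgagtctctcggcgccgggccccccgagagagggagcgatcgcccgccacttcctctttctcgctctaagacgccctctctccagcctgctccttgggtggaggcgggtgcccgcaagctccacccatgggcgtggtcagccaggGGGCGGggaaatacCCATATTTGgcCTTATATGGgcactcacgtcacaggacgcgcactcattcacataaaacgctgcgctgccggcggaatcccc
The Egr2 window is 1 of 5 entries for that gene. It has 2 matches to CCATATNNG that overlap, because the letters there read the same on both strands, and the Dusp5 window has 2 beside each other. CCATATNNG occurs in 1.26% of all 32851 promoter windows of this length, the CRE in 1.55%, the AP-1 site in 6.75%, the TATA motif in 12.37% and the GC box in 32.74%. The Tm4sf1 window holds none of these letters, Clic3 holds a GC box and Cdkn2b a CRE. The Egr2 entries at chr10:67535249-67535498 and chr10:67537316-67537565, not shown, hold GC boxes and no match to CCATATNNG. The window of Fos, a further immediate early gene, was also read and is not shown. It holds 1 GC box and 1 TATA motif and no match to CCATATNNG. Of 24 immediate early genes with an entry, Egr2 and Dusp5 are the only 2 that hold a match to CCATATNNG, so the windows shown do not stand for that list. A match describes letters only.

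Further genes below 0 missed the threshold, and those given next had adjusted p from 0.0704 to 0.394 (edgeR). Most of them were, like Tm4sf1, higher in all Pelo -/- than in all WT Lgr5 libraries. The genes of the opposite direction follow after them. Mtrr encodes methionine synthase reductase, which keeps the methionine cycle active. It was at 1.08, 1.86 and 2.41 CPM in the WT and 18.1, 12.3 and 23.2 CPM in the Pelo -/- Lgr5 libraries, without overlap, and at 12.6 to 36.5 CPM in the upper follicle. The difference was -3.41 ± 0.63 (SE) with an adjusted p of 0.0704, while the Lgr5 effect alone, 3.32 ± 0.54 (SE), had an adjusted p of 0.017.

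Cdkn2b encodes p15INK4B, an inhibitor of the cyclin D kinases that holds cells in G1 and is a known target of TGF-beta signalling. It was at 0.338, 0.449 and 0.164 CPM in the WT and 8.98, 18.5 and 7.78 CPM in the Pelo -/- Lgr5 libraries. The Lgr5 groups did not overlap, and the upper follicle libraries (2.5 to 13.5 CPM) overlapped between genotypes in both populations. The difference was -5.55 ± 1.04 (SE) (adjusted p = 0.0704), or -6.17 (adjusted p = 0.0356) without Pelo -/- Lgr6 replicate 3. The Lgr5 effect, 5.19 ± 0.91 (SE), passed the threshold on its own (adjusted p = 0.0366).

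Itga3, the integrin subunit that binds laminin in the basement membrane, was at 12.2, 13.3 and 8.97 CPM in the WT and 38.9, 63.5 and 48.1 CPM in the Pelo -/- Lgr5 libraries, with no overlap, and at 44.5 to 119.6 CPM in the upper follicle. Its Lgr5 effect of 2.13 ± 0.38 (SE) passed the threshold (adjusted p = 0.0457), but the difference from the upper follicle, -1.79 ± 0.46 (SE), did not (adjusted p = 0.392).

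Rab32, a small GTPase of lysosome-related organelles, was at 0.203, 0.256 and 0.383 CPM in the WT and 6.63, 0.142 and 7.89 CPM in the Pelo -/- Lgr5 libraries. Replicate 2 of the Pelo -/- group lay below all WT libraries, so the groups overlapped despite a difference of -4.57 ± 0.93 (SE) (adjusted p = 0.173), which was -5.13 (adjusted p = 0.00062) without that library. Smim26, a small integral membrane protein, was at 5.27, 2.82 and 2.84 CPM in the WT and 56.2, 37.8 and 6.5 CPM in the Pelo -/- Lgr5 libraries. Its groups did not overlap, and the difference was -3.66 ± 0.77 (SE) (adjusted p = 0.184), or -4.15 (adjusted p = 0.0204) without Pelo -/- Lgr5 replicate 3.

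Ppp1r15a (GADD34) recruits the phosphatase that restores translation after eIF2alpha phosphorylation. It was at 0.541, 4.23 and 4.59 CPM in the WT and 19.6, 27.2 and 13.6 CPM in the Pelo -/- Lgr5 libraries, with no overlap. The difference from the upper follicle was -2.77 ± 0.72 (SE) (adjusted p = 0.394). Ppp1r15a was named as a member of the list of the integrated stress and unfolded protein response. Of its 34 genes, 24 (70.6%) were below 0, against 70.5% of the 8882 genes that averaged at least 3. At an unadjusted p under 0.05, 3 (8.82%) were lower and 2 (5.88%) higher, against 7.27% and 1% of the 8882. Sdf2l1 of this list went the other way, at 3.33 ± 0.97 (SE). The exons of Ppp1r15a overlap those of Tulp2 on the other strand. Reads of the 2 genes cannot be told apart there unless counting used strand, which is not stated.

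In the opposite direction no gene passed the threshold, and the 5 with the smallest p are given as values. With DESeq2 all 5 passed it. Gpt, the alanine aminotransferase that links amino acid and glucose metabolism, was at 7.91, 21.2 and 15.7 CPM in the WT and 2.82, 1.77 and 3.87 CPM in the Pelo -/- Lgr5 libraries, every Pelo -/- value being below every WT value. In Lgr6 cells the order was reversed, with 37.2, 44.2 and 38.4 CPM in WT under 57.5, 70.9 and 47 CPM in Pelo -/- libraries. The difference was 2.65 ± 0.56 (SE) (adjusted p = 0.201), against 2.91 with DESeq2 (adjusted p = 4.07e-05).

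Lrrc8b, a subunit of volume-regulated anion channels, was at 14.9, 11.9 and 13.4 CPM in the WT and 0.176, 3.12 and 1.77 CPM in the Pelo -/- Lgr5 libraries. Vav3, a guanine nucleotide exchange factor, was at 27.1, 17.4 and 7.05 CPM in the WT and 4.05, 5.18 and 3.6 CPM in the Pelo -/- Lgr5 libraries. Pou3f1 (Oct6), a POU transcription factor of suprabasal keratinocytes, was at 16, 17.9 and 21.1 CPM in the WT and 10.9, 3.97 and 5.37 CPM in the Pelo -/- Lgr5 libraries. Each of the 3 genes had all Pelo -/- Lgr5 libraries below all WT ones and all Pelo -/- Lgr6 libraries above all WT ones, while the Lrig1 groups overlapped. Their differences were 3.02 ± 0.72 (SE) (adjusted p = 0.302), 2.09 ± 0.51 (SE) (adjusted p = 0.327) and 1.97 ± 0.49 (SE) (adjusted p = 0.352). Over the 15 libraries Vav3, at 2.60 (adjusted p = 0.0471), and Pou3f1, at 2.57 (adjusted p = 0.0358), passed the threshold in edgeR, and Lrrc8b, at 2.64 (adjusted p = 0.123), did not. Reads of Pou3f1 may include its antisense neighbour Gm2164.

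Guca2a, which encodes the gut and epithelial peptide guanylin, was at 157 to 462 CPM in the upper follicle and at 0.473, 0.0641 and 6.12 CPM in the WT and 0, 0.0709 and 0.107 CPM in the Pelo -/- Lgr5 libraries. The Lgr5 groups overlapped, and the WT level rests on replicate 3. The difference of 5.07 ± 1.31 (SE) had an adjusted p of 0.453, and was 2.11 without WT Lgr5 replicate 3. Of the 129 named genes, 15 that missed the threshold in edgeR passed it with DESeq2.

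**Figure D2:**
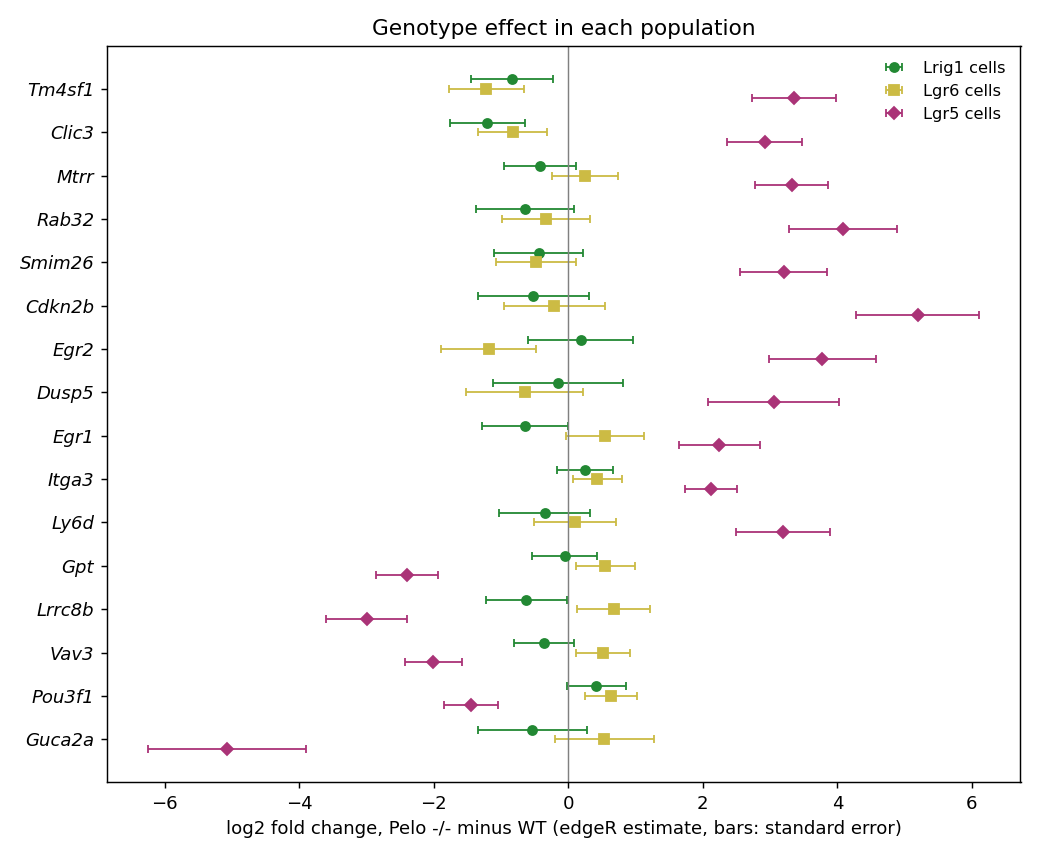
Points give the log2 genotype effect (Pelo -/- minus WT) of 16 named genes in Lrig1, Lgr6 and Lgr5 cells, and bars give the standard error of the edgeR estimate. For the first 11 genes the Lgr5 effect is 2.13 or higher while the upper follicle effects lie between -1.22 and 0.55, and for the last 5 the Lgr5 effect is -1.45 or lower.

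Of the 30 lists of genes that share a function, the immediate early genes held the most members lower in the comparison at an unadjusted p under 0.05 as a share of the list. 27 of the 30 tested members (90%) had a value below 0, against 52.8% of all genes tested and 70.5% of the 8882 genes that averaged at least 3 on the log2 CPM scale. Of the 30, 16 (53.3%) were lower at an unadjusted p under 0.05, against 3.67% of all genes and 7.27% of the 8882. No member passed the adjusted threshold, and none was higher at an unadjusted p under 0.05. The median difference was -1.03, against -0.07 over all genes and -0.33 over the 8882 genes. The median genotype effect was -0.29 in Lrig1, 0.39 in Lgr6 and 1.25 in Lgr5 cells. In Lgr5 cells 10 of the 30 had all Pelo -/- libraries above all WT libraries, which was true of 3.8% of all genes tested and 8.98% of the 8882.

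Averaged over the 30 genes, the mean log2 CPM was 4.79, 4.70 and 3.90 in the WT and 6.42, 5.83 and 4.93 in the Pelo -/- Lgr5 libraries. The genotypes did not overlap, though Pelo -/- replicate 3 lay close to WT replicate 1. The upper follicle libraries ran from 5.33 to 6.59, so that the WT Lgr5 libraries were the lowest of all 17 and the Pelo -/- Lgr5 replicates 1 and 2 lay in the range of the upper follicle.

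**Figure D3:**
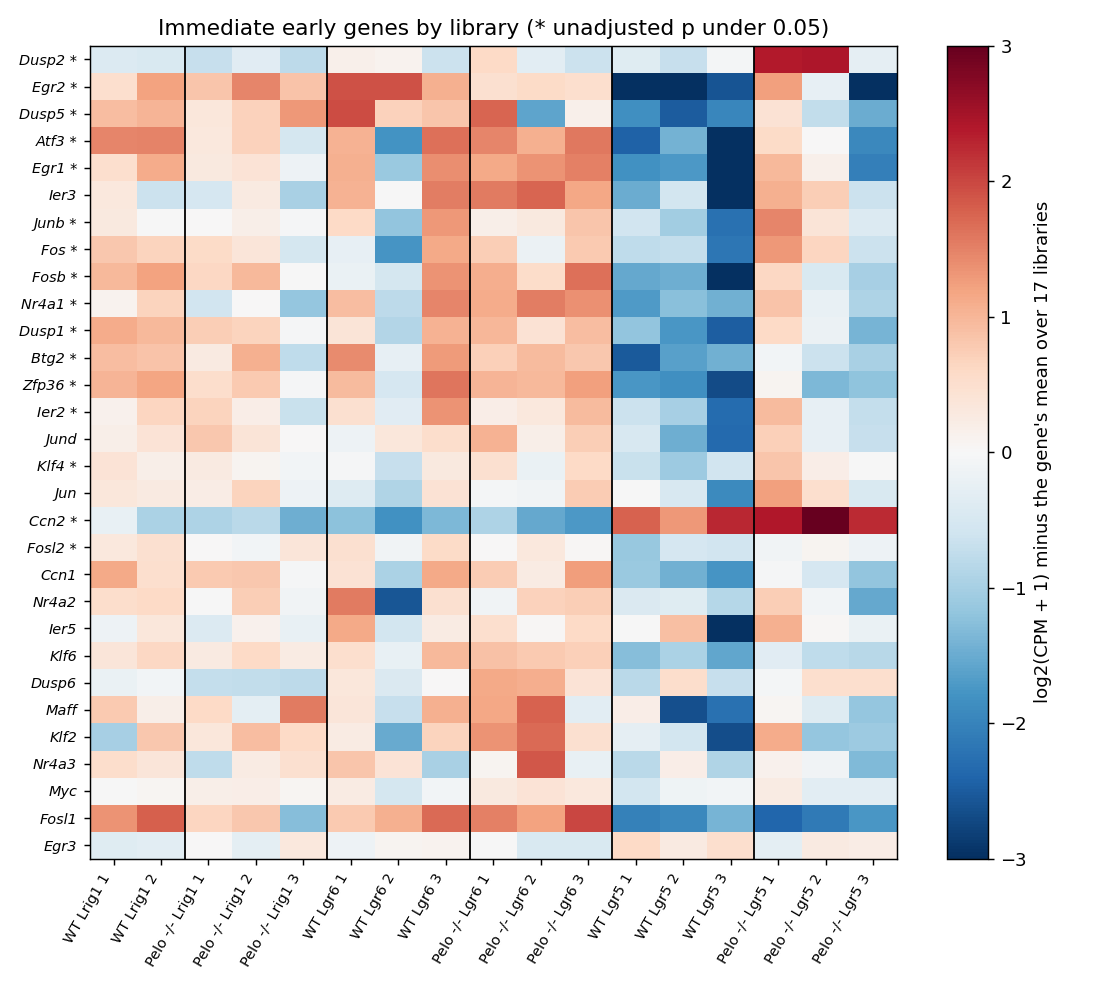
Rows are the 30 immediate early genes ordered by the difference, columns the 17 libraries, and colour gives log2(CPM + 1) minus the gene's mean over all libraries. The 3 WT Lgr5 columns are blue for most genes, the Pelo -/- Lgr5 columns pale to red in replicate 1 and bluer in replicate 3.

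Among the transcription factors of the list, Egr2 was at 0.811, 1.35 and 2.08 CPM in the WT and 43, 14.7 and 0.859 CPM in the Pelo -/- Lgr5 libraries. Replicate 3 of the Pelo -/- group lay among the WT values, so the groups overlapped, and the difference was -4.27 ± 0.93 (SE) (adjusted p = 0.22), or -4.83 (adjusted p = 0.00258) without that library. Egr2 is a zinc finger factor induced by growth signals, and in Lgr6 cells it was lower in all Pelo -/- libraries (25.2, 26.8 and 25.5 CPM) than in all WT ones (68.6, 69.4 and 37.8 CPM). Its relative Egr1 was at 167, 179 and 71.2 CPM in the WT and 1173, 660.1 and 142 CPM in the Pelo -/- Lgr5 libraries, with overlap, and differed by -2.29 ± 0.73 (SE) (adjusted p = 0.656). The AP-1 subunits and other factors named from here to the end of the paragraph were chosen after their values were seen. Fos was at 1306, 1346 and 494 CPM in the WT and 5524, 3470 and 1414 CPM in the Pelo -/- Lgr5 libraries, with no overlap, and differed by -1.81 ± 0.71 (SE) (adjusted p = 0.789). Fosb, at 77.3, 82.2 and 14.8 CPM in the WT and 352, 166 and 113 CPM in the Pelo -/- Lgr5 libraries, and Junb, at 19.5, 13.8 and 5.47 CPM in the WT and 82.7, 38.7 and 21.9 CPM in the Pelo -/- Lgr5 libraries, also did not overlap. Their differences were -1.76 ± 0.70 (SE) and -1.98 ± 0.69 (SE), whereas Jun, at 250.0, 182 and 67 CPM in the WT and 600.0, 362 and 185 CPM in the Pelo -/- Lgr5 libraries, overlapped and differed by -1.0 ± 0.57 (SE). Myc, a growth regulator on the same list, was at 117, 157 and 161 CPM in the WT and 204, 136 and 137 CPM in the Pelo -/- Lgr5 libraries and differed by 0.14 ± 0.40 (SE) (adjusted p = 1.0).

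The list also holds genes that switch such signals off. Dusp5, a nuclear phosphatase that inactivates ERK, was at 0.676, 0.0641 and 0.547 CPM in the WT and 7.1, 2.62 and 1.13 CPM in the Pelo -/- Lgr5 libraries, without overlap, and differed by -3.45 ± 1.15 (SE) (adjusted p = 0.693). Its exons overlap an antisense gene, AC137853.2. Btg2, an antiproliferative gene that is also a p53 target, was at 19.3, 37 and 41.7 CPM in the WT and 109, 73.2 and 58.7 CPM in the Pelo -/- Lgr5 libraries, without overlap, and differed by -1.64 ± 0.56 (SE) (adjusted p = 0.706). Zfp36, chosen after its values were seen, encodes tristetraprolin, which marks mRNAs with AU-rich elements for decay. It was at 81.5, 76.5 and 42.5 CPM in the WT and 293, 107 and 119 CPM in the Pelo -/- Lgr5 libraries, without overlap, and differed by -1.62 ± 0.56 (SE) (adjusted p = 0.706).

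Of the 30 immediate early genes, 24 had a promoter entry. The GC box was found for 21 of the 24, against 48.4% of 17111 tested genes with an entry. CCATATNNG was found for 2, Egr2 and Dusp5, against 1.36% of tested genes, the CRE for 3, against 2.38%, and the AP-1 site for none, against 6.96%.

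The Lgr5 libraries at both ends of the satellite-like share were also those at both ends of the level of these genes. The highest share (25.4%, WT replicate 3) went with the lowest list mean and the lowest share (1.72%, Pelo -/- replicate 1) with the highest. The 4 libraries between them did not follow that order: WT replicate 2, with a share of 4.08%, had a list mean of 4.70, below Pelo -/- replicate 2 (6.45% and 5.83) and Pelo -/- replicate 3 (9.42% and 4.93). The part of this share in the result was not tested beyond these values and the following ones. Without both libraries, the median difference of the list was -0.58 against -0.01 for all genes, 22 of 30 members were below 0, and 4 of 30 were lower at an unadjusted p under 0.05. The 16 members lower at an unadjusted p under 0.05 became 9 without WT Lgr5 replicate 3, 8 without Pelo -/- Lgr5 replicate 1, 10 without WT Lgr6 replicate 3 and 8 with limma's library quality weights. Over all 26 alternatives the median ranged from -1.52 to -0.58 and stayed below 0 in each.

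Genes of translation and respiration were also mostly below 0, but by less and less stably. For comparison, 70.5% of the 8882 genes that averaged at least 3 on the log2 CPM scale were below 0 and 7.27% lower at an unadjusted p under 0.05. Over all genes these shares were 52.8% and 3.67%. Of 81 cytosolic ribosomal protein genes, 78 (96.3%) were below 0 and 11 (13.6%) lower at an unadjusted p under 0.05, with a median of -0.72. For 75 nuclear genes of oxidative phosphorylation the figures were 72 (96%) and 13 (17.3%), with a median of -0.73. For 74 mitochondrial ribosomal protein genes they were 57 (77%, near the 70.5% of the 8882) and 9 (12.2%), with a median of -0.59, and 1 gene was higher. All 13 genes of the mitochondrial genome were below 0, 2 of them (15.4%) lower at an unadjusted p under 0.05, with a median of -0.77. No member of these lists passed the adjusted threshold.

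The mean log2 CPM of the cytosolic ribosomal protein genes was 7.21, 7.02 and 5.6 in the WT and 8.03, 7.05 and 6.56 in the Pelo -/- Lgr5 libraries, and 8.10 to 8.88 in the upper follicle. The Lgr5 genotypes overlapped, the lowest value being WT replicate 3 and the highest Pelo -/- replicate 1, the same libraries that had the highest and the lowest satellite-like share. Without these 2 libraries the medians turned positive: 0.41 for cytosolic ribosomal proteins, 0.39 for nuclear oxidative phosphorylation, 0.26 for mitochondrial ribosomal proteins and 0.59 for the mitochondrial genome. Without Pelo -/- Lgr5 replicate 1 alone, the mitochondrial genome list was at 0.08.

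Of the ribosomal protein genes, Rpl29 was at 2.5, 4.93 and 2.9 CPM in the WT and 68.8, 10.3 and 11.2 CPM in the Pelo -/- Lgr5 libraries, without overlap, and differed by -2.27 ± 0.85 (SE) (adjusted p = 0.786). Ribosomal protein genes have many processed copies that can share reads, and this value is uncertain for that reason. Mrpl17, of the large mitochondrial ribosomal subunit, was at 6.22, 3.2 and 2.79 CPM in the WT and 15.8, 9.71 and 14.8 CPM in the Pelo -/- Lgr5 libraries, without overlap, and differed by -2.16 ± 0.53 (SE) (adjusted p = 0.327). Mrps2, of the small subunit, went the other way at 12.2, 18.6 and 9.62 CPM in the WT and 1.7, 0.567 and 5.15 CPM in the Pelo -/- Lgr5 libraries, also without overlap, and differed by 2.69 ± 0.83 (SE) (adjusted p = 0.573). Uqcrc2, a core subunit of respiratory complex III, was at 10.3, 16.1 and 12.1 CPM in the WT and 45.4, 33.5 and 19.9 CPM in the Pelo -/- Lgr5 libraries and differed by -1.52 ± 0.48 (SE) (adjusted p = 0.644).

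The 26 genes of ribosome rescue and no-go decay, the pathway of Pelo, lay near the background, with 20 (76.9%) below 0, 1 (3.85%) lower at an unadjusted p under 0.05 and a median of -0.24. The translation factors (median -0.37, 2 of 43 lower) and the mTOR pathway (median -0.29, 2 of 38 lower) were also close to the -0.33 of the 8882 genes that averaged at least 3 on the log2 CPM scale.

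Cell division genes lay on the other side of 0. Above 0 were 47.2% of all genes and 29.5% of the 8882 genes that averaged at least 3 on the log2 CPM scale. Of 38 genes of G2 and mitosis, 33 (86.8%) were above 0, with a median of 0.57, and 1, Bub1, was higher at an unadjusted p under 0.05 (2.63%, against 1.85% of all genes). Of 40 genes of S phase and DNA replication 28 (70%) were above 0, with a median of 0.30 and none at an unadjusted p under 0.05. None passed the adjusted threshold. Bub1, a spindle checkpoint kinase, was at 14.3, 39.7 and 1.04 CPM in the WT and 0.939, 5.32 and 3.33 CPM in the Pelo -/- Lgr5 libraries and differed by 2.92 ± 1.19 (SE) (adjusted p = 0.798).

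The mean log2 CPM of the G2 and mitosis list was 4.00, 3.92 and 1.59 in WT and 3.54, 1.78 and 1.99 in Pelo -/- Lgr5 libraries, against 2.92 to 4.49 in the upper follicle. WT replicate 3 thus lay with Pelo -/- replicates 2 and 3, and Pelo -/- replicate 1 near the other WT libraries. Without WT replicate 3 and Pelo -/- replicate 1, which are also the libraries with the highest and lowest satellite-like share, the median was 2.09, and the S phase list was at 1.34. The G2 and mitosis median was 0.97 without WT replicate 3 alone, 1.42 without Pelo -/- replicate 1 alone and 0.30 without WT replicate 2.

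Over these 15 libraries 21 genes of 28093 passed the threshold, 13 higher and 8 lower, and 4 of those higher belong to the division lists. Cdk1, the kinase that drives entry into mitosis, was at 45.5, 17.9 and 0.984 CPM in the WT and 18.2, 0.213 and 1.56 CPM in the Pelo -/- Lgr5 libraries, and differed by 5.37 ± 0.88 (SE, adjusted p = 0.0248) over 15 libraries and by 1.76 ± 1.46 (SE, adjusted p = 1.00) over 17. Top2a, the topoisomerase of dividing cells, was at 133, 193 and 23.1 CPM in the WT and 94.3, 27.7 and 23.1 CPM in the Pelo -/- Lgr5 libraries, and differed by 2.70 ± 0.45 (SE, adjusted p = 0.0248) over 15 libraries and by 1.09 ± 0.69 (SE, adjusted p = 0.999) over 17. Mcm3, of the replicative helicase, was at 15.3, 53.1 and 2.46 CPM in the WT and 23.2, 4.25 and 5.42 CPM in the Pelo -/- Lgr5 libraries, and differed by 3.50 ± 0.65 (SE, adjusted p = 0.0424) and by 1.53 ± 0.91 (SE) (adjusted p = 0.98). The fourth was Pola1, of the primase complex, at 3.29 ± 0.59 (SE, adjusted p = 0.0358) and 1.17 ± 0.74 (SE, adjusted p = 0.995). These calls rest on leaving out the 2 libraries whose values for these genes lie nearest to the other genotype.

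**Figure D4:**
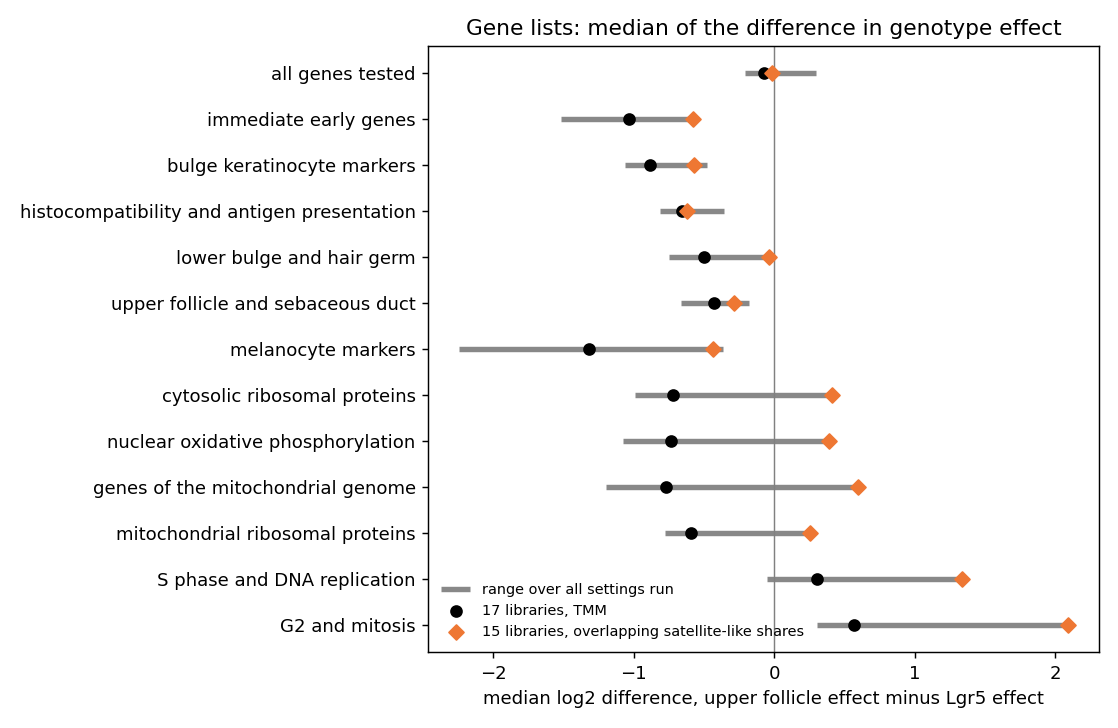
Black points give the median difference of 12 lists and of all genes over 17 libraries, orange diamonds the same over the 15 libraries of overlapping satellite-like share, and grey bars the range over all settings. The immediate early genes stay below 0 at -1.03 and -0.58, the ribosomal and respiratory lists change sign, and the division lists move further up, to 2.09 for G2 and mitosis.

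**Figure D5:**
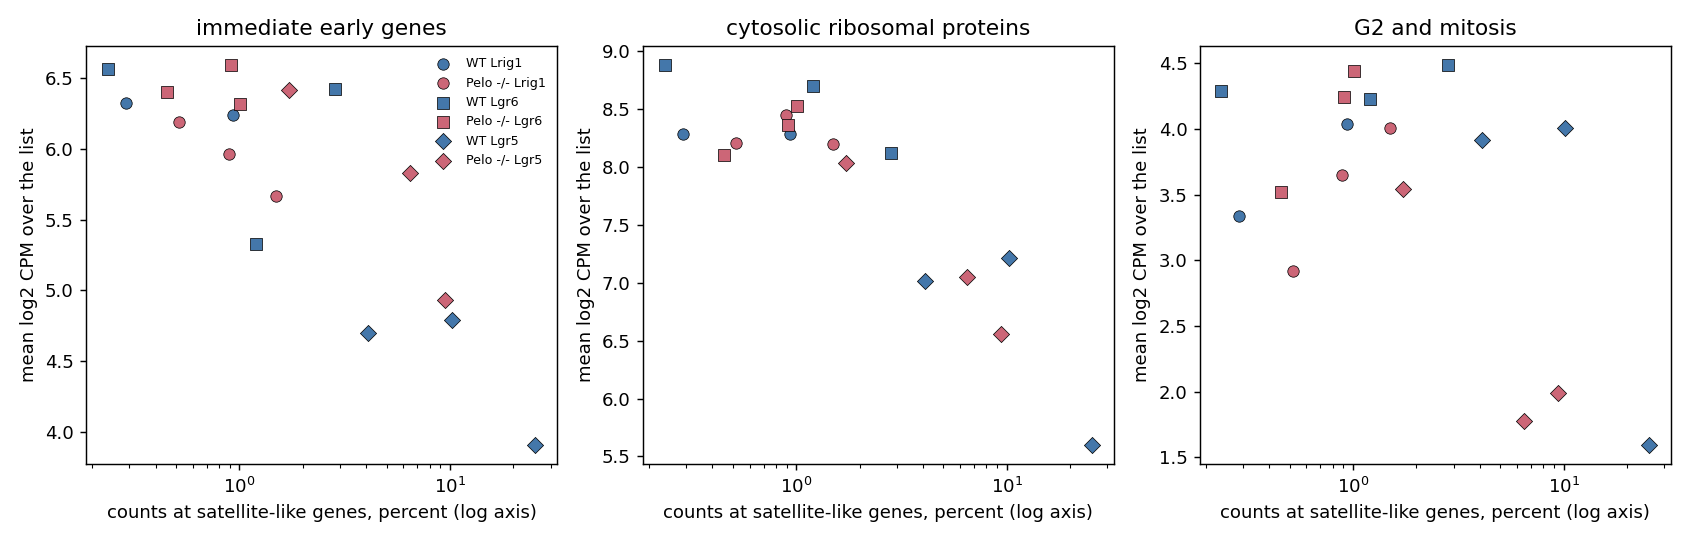
Each point is 1 library: the horizontal log axis gives the percent of counts at satellite-like genes and the vertical axis the mean log2 CPM over a list. Lgr5 libraries (diamonds) fill the right side, from 1.72% to 25.4%, and at shares from 4.08% to 10.2% the WT and Pelo -/- ribosomal values interleave while the mitosis values are apart.

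Among the 26 p53 targets and CDK inhibitors, 16 (61.5%) were below 0, a smaller share than the 70.5% of the 8882 genes that averaged at least 3 on the log2 CPM scale, and 4 (15.4%) were lower at an unadjusted p under 0.05, against 3.67% of all genes and 7.27% of the 8882: Cdkn2b, Trp53, Btg2 and Ccng1, the last outside the naming rule. The list's median was -0.40. Trp53 itself was at 12, 9.81 and 11.8 CPM in the WT and 42.3, 13.8 and 30.7 CPM in the Pelo -/- Lgr5 libraries, without overlap, and differed by -1.69 ± 0.50 (SE) (adjusted p = 0.52). The median was -0.19 over the 15 libraries.

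Of 25 upper follicle and sebaceous duct genes, 18 (72%) were below 0, close to the 70.5% of the 8882 genes. Of the 25, 6 (24%) were lower at an unadjusted p under 0.05, against 7.27% of the 8882, with a median of -0.43 that ranged from -0.66 to -0.18 over the alternatives. The list's median genotype effect was -0.25 in Lrig1, -0.44 in Lgr6 and 0.14 in Lgr5 cells, against -0.08, -0.01 and 0.30 over the 8882. In Lgr5 cells 1 of the 25 had all Pelo -/- libraries above all WT libraries, which was true of 8.98% of the 8882. Ly6d was at 1.15, 1.6 and 0.601 CPM in the WT and 20.2, 0.78 and 9.56 CPM in the Pelo -/- Lgr5 libraries, the groups overlapping through Pelo -/- replicate 2, and differed by -3.32 ± 0.82 (SE) (adjusted p = 0.357), or by -3.86 (adjusted p = 0.00993) without that library. Defb6, a beta-defensin of the upper follicle, was at 0.135, 0 and 5.14 CPM in the WT and 4.58, 38.4 and 7.35 CPM in the Pelo -/- Lgr5 libraries and 87 to 571 CPM in the upper follicle, and differed by -4.07 ± 1.39 (SE) (adjusted p = 0.756). Without WT Lgr5 replicate 3 it was at -8.52 (adjusted p = 0.0122) and the 1 gene that passed the threshold, and over the 15 libraries it was at -8.94 (adjusted p = 0.00162). With 1 library left out at a time it ranged from -8.52 to -2.57. Gata6, a transcription factor of the sebaceous duct, was at 2.91, 3.27 and 6.07 CPM in the WT and 15.4, 11 and 5.85 CPM in the Pelo -/- Lgr5 libraries and differed by -1.83 ± 0.60 (SE) (adjusted p = 0.657).

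In bulk libraries, a higher level of single genes such as Ly6d in Pelo -/- Lgr5 cells cannot be told apart from a few more upper follicle cells in the sort. The summed CPM of 8 interfollicular keratinocyte markers was 2017, 2365 and 958 in WT and 4276, 2307 and 2010 in Pelo -/- Lgr5 libraries, with overlap, and 18630 to 34290 in the upper follicle. Its part in the values of Clic3, Tm4sf1 and Ly6d was not tested.

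Genes of the bulge, where Lgr5 cells reside, lay on the same side. Of 36 lower bulge and hair germ genes 32 (88.9%) were below 0 and 7 (19.4%) lower at an unadjusted p under 0.05. The shares were 70.5% and 7.27% of the 8882 genes that averaged at least 3 on the log2 CPM scale, and 52.8% and 3.67% of all genes. The list's median was -0.50, and -0.04 over the 15 libraries. Its median genotype effect was -0.11 in Lrig1, -0.51 in Lgr6 and 0.28 in Lgr5 cells, against -0.08, -0.01 and 0.30 over the 8882. Cd34, the surface marker of bulge stem cells, was at 232, 195 and 266 CPM in the WT and 344, 329 and 366 CPM in the Pelo -/- Lgr5 libraries, without overlap. In Lrig1 cells it was at 28.3 and 44.6 CPM in WT and 24.9, 10.6 and 10.8 CPM in Pelo -/- libraries, also without overlap but in the other order, and the difference was -2.70 ± 0.98 (SE) (adjusted p = 0.758). Fgf18, a growth factor that keeps the follicle at rest, was at 18.5, 20.5 and 23 CPM in the WT and 31.8, 28.4 and 29.7 CPM in the Pelo -/- Lgr5 libraries. It was at 0 to 12.3 CPM in the upper follicle and differed by -4.47 ± 1.74 (SE) (adjusted p = 0.789). With 1 library left out at a time this difference ranged from -5.41 to -2.06. For both Cd34 and Fgf18 the larger part of the difference came from the upper follicle, where Fgf18 levels reached down to 0 CPM. Cxcl14, a chemokine of epithelia, differed by -1.43 ± 0.51 (SE) (adjusted p = 0.725). Its effect in the upper follicle was the larger part, with Pelo -/- below WT in every Lrig1 library (47.9, 67.9 and 64.9 under 78.9 and 104 CPM) and in every Lgr6 library (46.5, 39.1 and 45 under 108, 61 and 107 CPM). All 8 bulge keratinocyte markers were below 0, against 70.5% of the 8882 genes, with a median of -0.89. Of the 8, 1 (12.5%) was lower at an unadjusted p under 0.05, against 7.27% of the 8882.

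Histocompatibility genes, which present peptides to T cells, are known to be low in bulge stem cells. Of 23, 18 (78.3%) were below 0, near the 70.5% of the 8882 genes that averaged at least 3 on the log2 CPM scale. Of the 23, 5 (21.7%) were lower at an unadjusted p under 0.05, against 7.27% of the 8882 and 3.67% of all genes. The median was -0.65, and -0.62 over the 15 libraries. H2-T22, a nonclassical class I gene, was at 6.83, 5.38 and 5.85 CPM in the WT and 20.8, 8.44 and 16.6 CPM in the Pelo -/- Lgr5 libraries, without overlap, and differed by -1.89 ± 0.55 (SE) (adjusted p = 0.509). Its close relative H2-T23 was at 36.4, 40.6 and 21.5 CPM in the WT and 89.5, 89.4 and 47.1 CPM in the Pelo -/- Lgr5 libraries, without overlap, and differed by -1.59 ± 0.52 (SE) (adjusted p = 0.657). The upper follicle libraries held 74.9 to 289 and 69.5 to 255 CPM of these genes. They belong to a family of similar sequences, so reads can be shared between its members, and the values are uncertain in that respect.

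Markers of melanocytes, which sit in the bulge and hair germ, had the lowest median of all 39 lists, -1.32. Of the 14 genes, 12 (85.7%) were below 0 and 3 (21.4%) lower at an unadjusted p under 0.05, against 52.8% and 3.67% of all genes. Only 1 of the 14 averaged at least 3 on the log2 CPM scale. The list's median genotype effect was 0.12 in Lrig1, -0.94 in Lgr6 and 0.54 in Lgr5 cells. The median difference was -0.94 for Lrig1 minus Lgr5 and -2.12 for Lgr6 minus Lgr5. In Lgr5 cells 2 of the 14 had all Pelo -/- libraries above all WT libraries, against 3.8% of all genes. Tyr, the enzyme that starts melanin synthesis, was at 0.27, 0.32 and 0.82 CPM in the WT and 3.34, 7.16 and 3.97 CPM in the Pelo -/- Lgr5 libraries, without overlap, and Tyrp1, a second pigment enzyme, at 1.69, 6.67 and 0.984 CPM in the WT and 26.6, 8.86 and 8.7 CPM in the Pelo -/- Lgr5 libraries, also without overlap. Their differences were -5.13 ± 1.49 (SE) (adjusted p = 0.509) and -4.67 ± 1.48 (SE) (adjusted p = 0.644). The summed level of the 14 markers was 75.2, 147.6 and 117.8 CPM in the WT and 351, 175 and 162 CPM in the Pelo -/- Lgr5 libraries, without overlap, and 13.3 to 53.7 CPM in the upper follicle. Without Pelo -/- Lgr5 replicate 1 the median of the list was -0.37. The melanocyte share of each sort and its part in the other results were not tested.

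The remaining lists had few members past an unadjusted p of 0.05. The 33 interferon response genes had 22 (66.7%) above 0, against 47.2% of all genes, and 1 (3.03%) higher at an unadjusted p under 0.05, against 1.85%. Only 9 of the 33 averaged at least 3 on the log2 CPM scale. With a mean CPM of at least 5, 12 of these genes were tested, 6 above and 6 below 0, with a median of 0.26. Over all 33 the median was 0.91, and it ranged from 0.14 to 1.39 over the alternatives. The populations differed in sign here: the median was 1.29 for Lrig1 minus Lgr5 and -0.11 for Lgr6 minus Lgr5, a difference that was not tested. The Wnt pathway (median -0.28), BMP and TGF-beta pathway (-0.18), Notch pathway (0.22), EGF receptor family (-0.11), collagen and matrix (-0.25), integrins and laminins (-0.02), ribosome biogenesis (0.00) and RNA decay (-0.18) each had at most 3 members in either direction at an unadjusted p under 0.05. With DESeq2's size factors in place of edgeR's the median of all genes moved from -0.07 to 0.19. On that scale the immediate early genes were at -0.85, the cytosolic ribosomal protein genes at -0.55 and the G2 and mitosis genes at 0.68, with the same sign as before relative to 0.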

How the data were processed

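The deposited table holds the authors' read counts per gene for 17 RNA libraries, whole numbers that are not normalized. Per the submitters' processing notes, STAR, edgeR and the GRCm38/mm10 build were used. No source used here states the versions or whether the counting used strand. If it did not, reads of antisense neighbours with overlapping exons may be included for Lrig1, Hbs1l, Cd34, Gata6, Wnt5a, Uqcrc2 and H2-T22 as well. Per the labels' protocols, each library came from 1000 sorted GFP+ cells. Totals were 9647507 to 28098841 counts, which limits precision for low genes, most of all in the Lgr5 libraries (at most 17219054 counts). Of 48820 gene identifiers, 48144 matched GENCODE M21, which gave names and positions, and the unmatched 676 held 0.11% to 0.157% of the counts.

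Counts were fitted with edgeR 4.0.16 (R 4.3.3): filterByExpr with a minimum count of 10 (30405 genes kept), TMM scaling, a robust quasi-likelihood fit with 1 term for each of the 6 groups, and Benjamini-Hochberg adjustment with a threshold of 0.05. CPM values use the TMM library sizes. The procedure was run on simulated counts, drawn independently for each library. No shift of satellite-like or mitochondrial share between libraries of a population was built in, so that run does not cover such shifts. Alternatives used DESeq2 1.42.0, limma 3.58.1, other filters and scaling, a replicate term and the removal of each library. An alternative without WT Lgr5 replicate 3 and Pelo -/- Lgr5 replicate 1 was added after seeing the data. The named genes were up to 15 in each direction among those past the threshold that averaged at least 3 on the log2 CPM scale and no predicted or non-coding gene, filled to 5 in each direction by the smallest p, the targeted and marker genes, and up to 3 members of each of 39 gene lists. The comparison, the rule and the lists were chosen with earlier results of these data known. Differences are read from the fit across all genes, and lists are described by counts and medians without a test of their own. The p-values measure the spread between these libraries, which may be technical where replicates are not separate animals.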

Additional observations from a re-analysis of the deposited data

Results flagged for a closer look

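The 3 genes past the threshold are those whose genotype effect differed between 2 parts of the epidermis by a test of the difference itself (edgeR, adjusted p = 0.049 for each). For Tm4sf1 the difference of upper follicle minus Lgr5 effects was -4.38 ± 0.74 (SE), with a higher level in Pelo -/- than in WT for every pair of the Lgr5 libraries. For Clic3 it was -3.94 ± 0.67 (SE), with the same separation in Lgr5 cells and the opposite one in Lrig1 cells. For Gm14038 it was -9.61 ± 1.59 (SE), a fitted value that depends on the treatment of the 0 counts in the WT Lgr5 libraries.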

How the results depend on the processing

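The 3 calls of upper follicle minus Lgr5 (all lower) depended on the processing. The number called was 0 with DESeq2's size factors in edgeR, 0 with a mean CPM of at least 5, 0 with limma-voom, 0 with limma's quality weights and 0 without satellite-like and mitochondrial genes. It was 47 (13 higher, 34 lower) with no filter on low counts, where 46571 genes were tested. It was 84 (52 higher, 32 lower) with DESeq2, which gave no adjusted p for 9538 genes. It was 21 (13 higher, 8 lower) in the alternative added after seeing the data, which leaves Lgr5 libraries of overlapping satellite-like share. Leaving out 1 library at a time gave 0 to 7 called, all lower: 0 in 10 of the 17 fits, 7 without Pelo -/- Lgr5 replicate 3, and 1, Defb6, without WT Lgr5 replicate 3. Lrig1 minus Lgr5 had 0 called, against 25 with no filter, 62 with DESeq2, 3 in the added alternative and 0 to 3 with a library left out. Lgr6 minus Lgr5 had 0, against 28, 56, 11 and 0 to 3. The cause of these changes was not tested.

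With the replicate number as a block, 0 genes were called in each of the 3 comparisons. The numbers share no stated origin: deviations of same-numbered WT and Pelo -/- libraries of a population correlated at -0.000234 to 0.208, and 4 of these 8 pairs were over 0.1 (Lgr6 replicates 2 and 3, Lgr5 replicates 1 and 3), against 0 of 32 same-numbered pairs across populations. The mitochondrial shares of Lgr5 libraries also fell from replicate 1 to 3 in both genotypes. They were 12.01%, 6.15% and 3.69% in WT and 15.35%, 7.18% and 3.82% in Pelo -/-. As not every pair was over 0.1, the numbers were not taken as pairs, and whether some of these libraries share an origin was not tested. If they do, the added alternative breaks the pairing, since it takes out WT Lgr5 replicate 3 and Pelo -/- Lgr5 replicate 1.

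Of the 129 named genes, those that changed sign did so as follows. Lgr6 (0.02) was at -0.23 with limma-voom and, with 1 library left out, ranged from -0.28 to 0.56. Lrig1 was at 0.0033 with a mean CPM of at least 5. With 1 library left out, Itgam ranged from -2.26 to 1.08 (above 0 without WT Lrig1 replicate 1), Areg from -0.45 (without WT Lgr5 replicate 1) to 5.28 and mt-Co2 from -1.33 to 0.042 (above 0 without Pelo -/- Lgr5 replicate 1). In the added alternative Eif4e2 was at 0.16, Nop10 at 0.059, mt-Co1 at 0.38, mt-Co2 at 0.56, Epcam at 0.32 and Krt14 at 0.22. Depth and replicate spread limit the Lgr5 side most.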

Other observations

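Of the named genes not described above, 5 from the wound, EGF receptor, Wnt and unfolded protein response lists are given as values, chosen after their values were seen. None passed the adjusted threshold in edgeR, and Sdf2l1 did with DESeq2 (adjusted p = 0.0171). Hbegf, an EGF receptor ligand released after wounding, was at 1.01, 8.33 and 1.75 CPM in the WT and 34.5, 9.71 and 12.6 CPM in the Pelo -/- Lgr5 libraries, without overlap, and its genotype effect differed by -2.34 ± 0.76 (SE) (adjusted p = 0.657). Errfi1, a feedback inhibitor of the EGF receptor, was at 37.2, 31.5 and 48.9 CPM in the WT and 75.3, 99.7 and 238 CPM in the Pelo -/- Lgr5 libraries, also without overlap, and differed by -1.32 ± 0.51 (SE) (adjusted p = 0.786). Cxcl1, a chemokine for neutrophils, was at 3.72, 6.22 and 0.328 CPM in the WT and 0, 0.142 and 0.107 CPM in the Pelo -/- Lgr5 libraries, all Pelo -/- values being lower, and differed by 5.42 ± 1.69 (SE) (adjusted p = 0.601). Wnt5a, a noncanonical Wnt ligand, was at 6.02, 12.1 and 5.25 CPM in the WT and 1.47, 1.56 and 5.21 CPM in the Pelo -/- Lgr5 libraries, with all Pelo -/- values lower, and differed by 1.67 ± 0.66 (SE) (adjusted p = 0.789). Sdf2l1, a chaperone cofactor of the endoplasmic reticulum, was at 1.01, 2.56 and 2.62 CPM in the WT and 0.235, 0.284 and 0.215 CPM in the Pelo -/- Lgr5 libraries, also with all Pelo -/- values lower, and differed by 3.33 ± 0.97 (SE) (adjusted p = 0.509). These are levels of at most a few CPM for Cxcl1 and Sdf2l1 in Lgr5 cells.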
